A study of Mus musculus with 34 samples.

Results

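Basal binding of p65 was compared between wild-type and Bmal1-/- Beta-TC6 cells that had not received IL-1β. The members were the peaks of the 2 control p65 lists, 3157 in wild type and 173 in the knockout, so 3330 of the 174035 peaks in the 10 lists of the series. Peaks were sorted into those overlapping a peak of the other genotype by at least 1 bp and those in 1 list alone, ranked by normalised tag count, and assigned to the nearest protein-coding gene body within 50 kb on mm10. By this rule 154 wild-type peaks were shared, 3003 were in wild type only, and 20 were found in the knockout only.

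Beta-TC6 is a mouse insulinoma line that secretes insulin. Both groups were immunoprecipitated with the same p65 antibody, without IL-1β. Both received a 1 h pulse of 10 µM forskolin, a treatment used to synchronise cellular clocks. No clock phase was measured here in either group. The wild-type group carries intact Bmal1 and the knockout group lacks it. Bmal1, also named Arntl, encodes the partner of CLOCK that drives the activating limb of the circadian clock. The labels used here state neither how the knockout was made nor the number of clones or the time of harvest after forskolin. They name 3 samples in each group and do not say that they came from separate cultures, and each group has 1 peak list with no value per sample. Differences between the genotypes are therefore described and not tested. Peak lists measure no transcript, so neither the knockout nor the identity of the cells was checked here.

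p65, encoded by Rela, is the transactivating subunit of NF-κB. In resting cells IκB proteins hold most of it in the cytoplasm, and IL-1β leads to IκB degradation and nuclear entry. Among its best-known targets are the genes of its own inhibitors, which close a negative feedback loop, and those of the noncanonical subunits NFKB2 and RELB. PDX1, used below as a second readout, is a homeodomain transcription factor needed for the mature β-cell state.

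The 2 lists were made with different windows and thresholds, and these values stand beside every difference in the number of peaks. The wild-type list came from 53.8 M tags with a peak width of 206 bp and a threshold of 20 tags, and the knockout list from 61.9 M tags with a width of 479 bp and a threshold of 35 tags. Tags inside peaks made up 0.268% of the wild-type tags and 0.0284% of the knockout tags. Before filtering there were 46678 putative wild-type and 30971 putative knockout peaks, and comparison with input removed 81.8% and 95.5% of them. The minimum distance between peaks was 412 bp in wild type and 958 bp in the knockout. The part of these settings in the short knockout list was not tested.

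Promoter sequences are shown first because peaks at promoters are where the basal lists meet the known binding sequence of NF-κB. Each line below gives the 120 bases that end just before a transcription start, 5′ to 3′ on the gene's strand, from RefSeq GRCm38.p6, the assembly of mm10. Capitals mark matches to the 10-base κB consensus on either strand. The first 5 belong to peaks present in both genotypes.

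Tnfaip3: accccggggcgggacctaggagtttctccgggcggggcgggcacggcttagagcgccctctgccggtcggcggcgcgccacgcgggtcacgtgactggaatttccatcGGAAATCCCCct
Nfkb2: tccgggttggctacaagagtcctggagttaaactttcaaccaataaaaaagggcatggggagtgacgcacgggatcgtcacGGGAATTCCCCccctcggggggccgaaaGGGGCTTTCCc
Traf3: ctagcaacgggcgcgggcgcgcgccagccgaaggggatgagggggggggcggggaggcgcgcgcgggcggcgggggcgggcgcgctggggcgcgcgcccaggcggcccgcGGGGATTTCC
Ifngr2: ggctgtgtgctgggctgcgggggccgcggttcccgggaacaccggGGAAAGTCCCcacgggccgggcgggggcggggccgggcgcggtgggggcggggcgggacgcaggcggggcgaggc
Atg16l2: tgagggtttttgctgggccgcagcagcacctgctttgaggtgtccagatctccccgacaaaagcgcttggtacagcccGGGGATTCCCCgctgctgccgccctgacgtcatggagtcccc

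The stretches lie at chr10:19015411-19015530, minus strand, for Tnfaip3, at chr19:46304617-46304736, plus strand, for Nfkb2, and at chr12:111166250-111166369, plus strand, for Traf3. Those of Ifngr2 and Atg16l2 lie at chr16:91546939-91547058, plus strand, and at chr7:101302089-101302208, minus strand. The match ended 3 bases before the start of Tnfaip3, which encodes the ubiquitin-editing inhibitor A20, and 1 base before that of Traf3, which encodes an adaptor that restrains the noncanonical pathway. The Nfkb2 stretch held 3 matches, of which 2 overlapped. All matches printed lay inside the wild-type peak. The next 3 belong to peaks found in wild type only.

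Nfkbie: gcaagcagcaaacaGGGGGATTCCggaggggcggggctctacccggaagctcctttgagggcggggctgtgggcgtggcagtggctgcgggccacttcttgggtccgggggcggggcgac
Nfkbia: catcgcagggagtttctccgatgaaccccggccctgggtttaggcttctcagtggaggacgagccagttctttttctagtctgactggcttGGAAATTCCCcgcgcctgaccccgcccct
Irf1: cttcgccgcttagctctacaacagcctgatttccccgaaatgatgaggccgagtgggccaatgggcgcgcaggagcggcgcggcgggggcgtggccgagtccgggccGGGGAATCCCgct

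They lie at chr17:45555580-45555699, plus strand, for Nfkbie, at chr12:55492648-55492767, minus strand, for Nfkbia, and at chr11:53769894-53770013, plus strand, for Irf1. Nfkbia and Nfkbie encode IκBα and IκBε, and Irf1 encodes an interferon regulatory factor. Promoters of both classes thus held matches.

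Over all promoters, few peaks could be examined in this way. A promoter window here runs from 250 bases before to 50 bases after a start, and 15 of the 154 shared peaks and 119 of the 3003 wild-type-only peaks overlapped at least 1 window. Of the 16 windows at shared peaks 12 held a κB match (75%, 95% Wilson interval 50.5 to 89.8%). Of the 133 windows at wild-type-only peaks 44 did (33.1%, 25.7 to 41.5%). These 2 shares are not matched for peak strength. All windows at shared peaks were at peaks of 12.1 or more normalised tags, while some wild-type-only peaks had as few as 3.91. Among all 32851 windows the share was 4.51%, and among those with at least the median GC content of the windows at wild-type peaks it was 6.83%. The matches lay inside the peak in 11 of the 12 shared cases and in 41 of the 44 wild-type-only cases. The E-box CACGTG, the palindromic core bound by CLOCK and BMAL1, was in 6 of the 16 and 17 of the 133 windows, against 7.15% of all windows and 10.9% of those rich in GC. Windows of genes that share a promoter overlap each other, as at Trp53 with Wrap53. Intervals here and below cover counting error only, not the spread between samples.

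Nearly all basal knockout sites were also wild-type sites, while few wild-type sites were in the knockout list. Of the 173 knockout peaks 153 overlapped a wild-type peak (88.4%, 82.8 to 92.4%), and of the 3157 wild-type peaks 154 overlapped a knockout peak (4.88%, 4.18 to 5.69%). The wild-type share is bounded by the lengths of the lists. With 173 knockout peaks to meet, it could not have been much higher. The share was higher among stronger wild-type peaks. It was 15.7% in the highest of 4 equal bins of tag count, 2.66% in the next, 1.01% in the one after that and 0.127%, a single peak, in the lowest. All 44 peaks of the highest knockout bin were shared, and 33 of the 43 in the lowest. Among the 10 strongest wild-type peaks 8 were shared, among the 50 strongest 37, and among the 100 strongest 57. With the wild-type list cut to its 173 strongest peaks, the length of the knockout list, 79 (45.7%) were shared. No pair met a reciprocal overlap of 50%, which windows of 206 and 479 bp cannot reach.

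**Figure D1:**
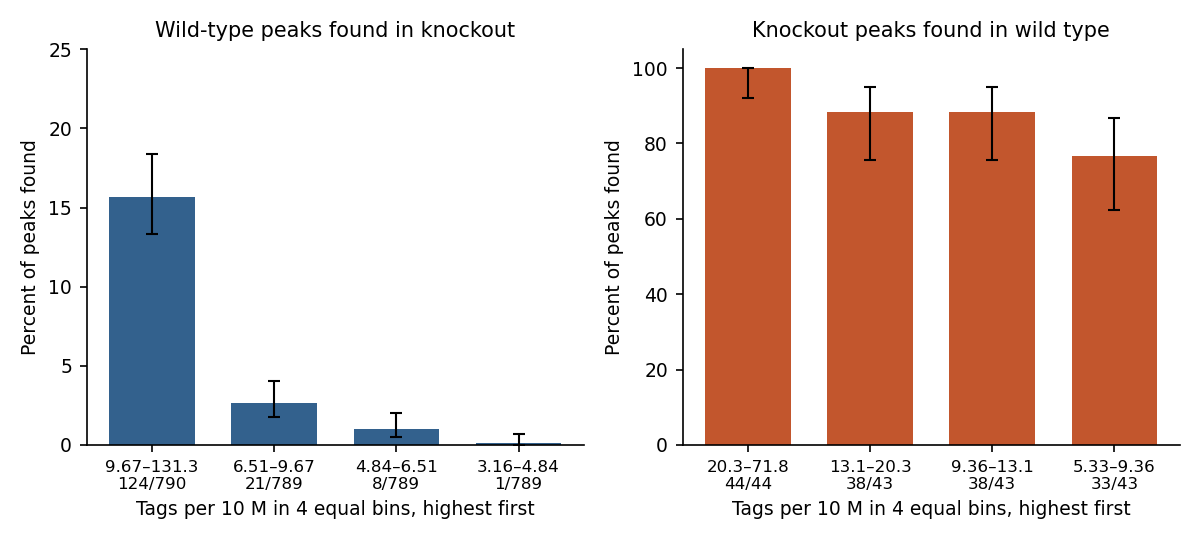
Share of basal p65 peaks that overlap a peak of the other genotype, in 4 equal bins of tags per 10 M, with the tag range and the number found under each bar and 95% Wilson intervals as lines. The 2 panels have different vertical scales. The wild-type share falls from 15.7% to 0.127% across the bins, and 33 of 43 knockout peaks of the lowest bin were found.

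Tag counts, here always per 10 M tags as normalised by the authors, describe how strong the classes were within each list. Shared wild-type peaks had a median of 18.0 tags and wild-type-only peaks 6.32. Shared knockout peaks had a median of 14.5 and knockout-only peaks 9.28. By tag count alone, 1956 of the 3003 wild-type-only peaks (65.1%) reached the lowest knockout value of 5.33 tags, and 293 (9.76%) reached the knockout median of 13.1 tags. These counts set tags in windows of 206 bp against tags in windows of 479 bp, so they do not compare strength between the genotypes. Few wild-type-only peaks lay just beside a knockout peak: 7 of 3003 were within 500 bp of one. Among them were a Fabp4 peak with 53.0 tags, an Nfkbia peak with 21.8 tags and an Scd1 peak with 24.2 tags, at gaps of 434, 349 and 438 bp. These gaps are shorter than the 958 bp that the knockout list required between its own peaks.

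NF-κB feedback inhibitors had basal peaks in both genotypes. Of 13 genes for IκB proteins and other feedback inhibitors 9 had a wild-type peak and 3 a knockout peak, where 8.92% of all 21883 genes had a wild-type peak and 0.658% a knockout peak. Nfkbia carried a shared peak inside the gene, at chr12:55491836-55492042, with 45.6 tags in wild type and 39.7 in the knockout. It ranked 17 of 3157 and 6 of 173. Tnfaip3 had 34.2 and 29.4 tags at its start, at chr10:19015339-19015545, ranking 38 and 19. Nfkbib, encoding IκBβ, had 26.8 and 23.1 tags in a peak that also overlapped the promoter window of Sirt2. Nfkbib ranked 66 and 32. By tag rank these 3 genes were thus in the upper part of both lists. Relative to input, tags were 60.9 and 12.8 times as many at Nfkbia and 8.32 and 4.97 at Tnfaip3. They were 4.21 and 4.64 times as many at Nfkbib, where 4 was required.

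The 6 other feedback genes were listed in wild type only. Nfkbie had 28.1 tags, rank 60, in a peak 38 bp from the gene. Tnip1, encoding an A20-binding protein, had 18.0 tags and the atypical IκB gene Bcl3 had 16.0. Nfkbiz, Cyld and Nfkbid had 9.11, 8.74 and 7.62 tags. The peaks given for Nfkbie, Tnip1 and Bcl3 were among the 293 wild-type-only peaks with at least 13.1 tags, the knockout median. That median was counted in a wider window. Genes without a basal peak in either genotype were Tnip2, Tnip3, Otud7b and Zc3h12a.

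The subunit genes followed the same division. Of 5 genes Nfkb2 and Relb had peaks in both genotypes, with 32.5 and 30.7 tags in wild type and 22.8 and 16.5 in the knockout. Nfkb1 had 4 peaks in wild type only, the strongest with 10.8 tags and 41801 bp from the gene body. Rela and Rel had none.

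The other pathway lists are read beside the 8.92% of all genes with a wild-type and 0.658% with a knockout peak. Of 13 survival genes Traf3 had a shared peak, with 22.1 and 16.0 tags, and Bcl2 and Gadd45b had wild-type peaks of 8.0 and 7.81 tags. Of 15 genes of IL-1 receptor and IKK signalling only Map3k8, a kinase upstream of ERK, had a peak, with 6.32 tags in wild type. Of 20 cytokine and chemokine genes 4 had a wild-type peak, namely Csf1 with 10.2, Csf2 with 9.86, Ccl5 with 9.67 and Il15 with 5.21 tags, and none had a knockout peak. Those of Csf2 and Ccl5 were 47586 and 20789 bp from the gene body. Of 18 other classical targets Irf1 had 15.8 tags, Tapbp 9.67 and Nos2 7.07, all in wild type only. These shares were 23.1% for survival genes, 6.67% for IL-1 receptor and IKK signalling, 20% for cytokines and 16.7% for the other targets in wild type. Over the 6 lists together, 23 of 84 genes (27.4%) had a wild-type peak and 6 (7.14%) a knockout peak, and each of the 6 had a peak shared between the genotypes.

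**Figure D2:**
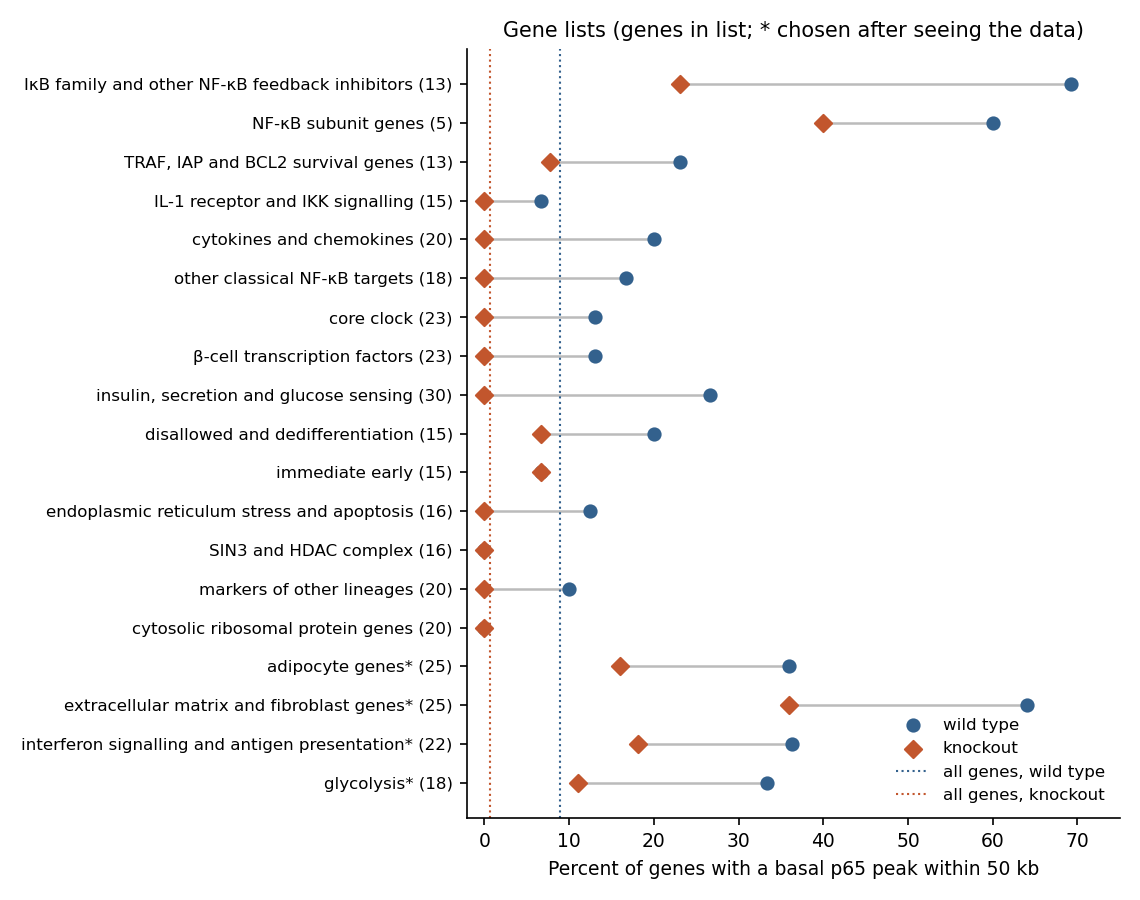
Percent of the genes of each list with a basal p65 peak within 50 kb, in wild type (circles) and knockout (diamonds), with the number of genes in brackets and dotted lines at the percent of all genes, 8.92% and 0.658%. Asterisks mark lists chosen after the values had been seen. Feedback inhibitors stand at 9 and 3 of 13 genes, and the lists of insulin and secretion, clock and cytokine genes have no knockout gene.

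Across the 154 shared pairs the order of strengths was alike in the 2 lists. Spearman's rho was 0.864 over 154 sites, given as a description since the sites share 2 lists and their inputs. The knockout value was lower than the wild-type value in 114 pairs and higher in 40, with a median ratio of 0.841 and middle 50% from 0.658 to 1.01. The knockout window was 2.31 times as wide, so these ratios are not a measure of a change in binding. The centres of the paired peaks were a median of 45.5 bp apart and at most 322 bp.

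The pair farthest to the wild-type side was at Aatf, encoding an apoptosis-antagonising transcription factor. It had the highest wild-type value, 131.3 tags at chr11:84430595-84430801, and 36.5 tags in the knockout. Otulinl and Cbfa2t3, the latter encoding a transcriptional corepressor, ranked 1 and 2 in the knockout with 71.8 and 63.5 tags, against 61.2 and 48.7 in wild type. Wdtc1 had 84.4 and 45.5 tags, Slc3a1, encoding an amino acid transporter subunit, had 72.9 and 50.4, and Scd1, encoding stearoyl-CoA desaturase, had 72.7 and 43.4. Npas3, Jak1 and Ahdc1 had 61.7, 50 and 49.8 wild-type tags and 36.2, 22 and 32 knockout tags. None of these 9 genes was in an NF-κB list.

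The same sites were then read in the wild-type list with IL-1β, which has the same window of 206 bp and 53.5 M tags. This separated the shared peaks into sites far above and sites mostly below their basal tag count. Of the 154 shared peaks 51 (33.1%) had at least 4 times their basal tags, 0 had 2 to 4 times, 10 had 1 to 2 times, 67 (43.5%) had fewer tags than at baseline and 26 were not listed. The limits of 2 and 4 times were set after the values had been seen. The 51 sites had ratios from 4.14 to 25, and the 77 listed sites under 2 times had ratios from 0.393 to 1.68. Wild-type-only peaks showed no such gap, with 457, 327, 453 and 227 of 3003 in these bands and 1539 not listed with IL-1β. With 1 list per condition these ratios have no replicate check.

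**Figure D3:**
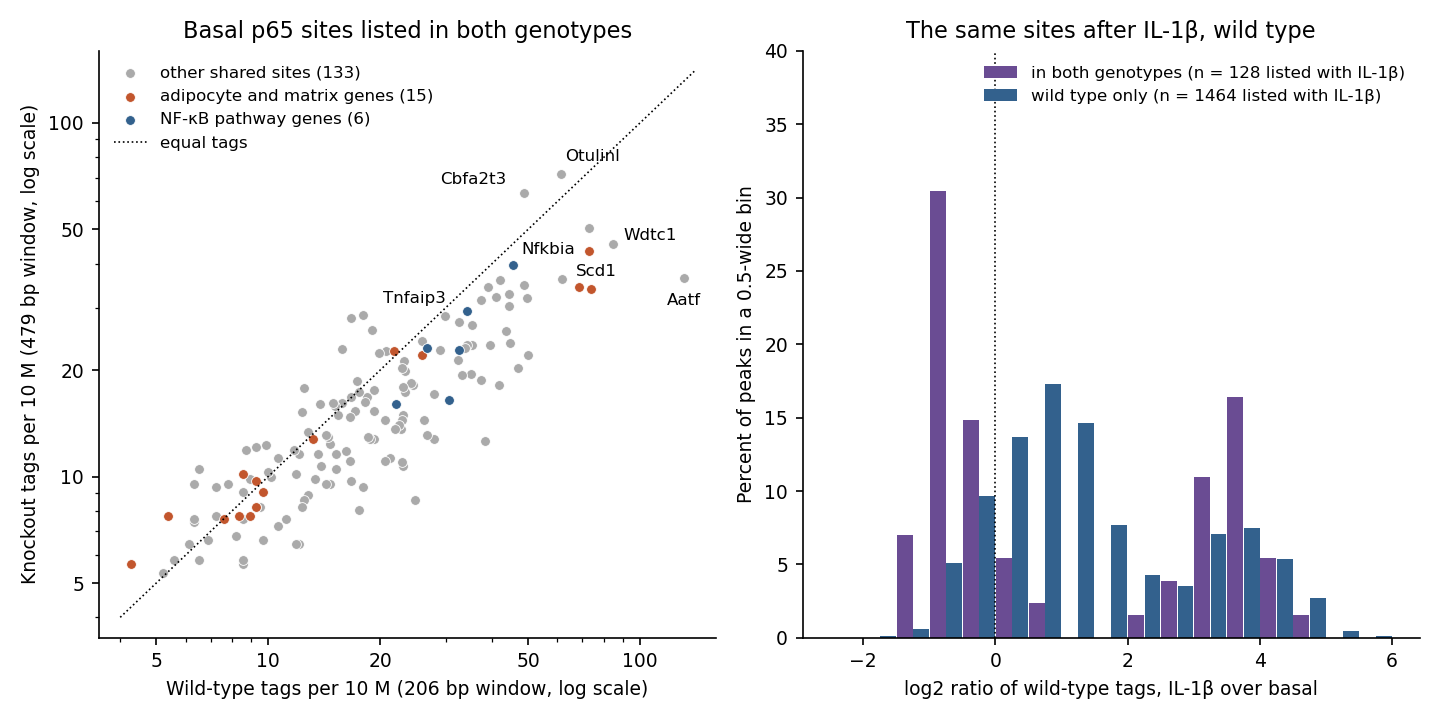
Left, tags per 10 M of the 154 shared basal sites in knockout against wild type on log axes, where 114 points lie below the dotted line of equal tags and the windows differ in width. Right, log2 ratio of wild-type tags with IL-1β over basal tags for the 128 shared and 1464 wild-type-only peaks listed with IL-1β, as the percent of each class per bin; no shared peak lies between 1 and 2, that is at 2 to 4 times basal.

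The 6 NF-κB genes with a shared peak were all on the high side. The Nfkbia peak went from 45.6 basal tags to 509.8 with IL-1β, Tnfaip3 from 34.2 to 810.9, Nfkb2 from 32.5 to 509.2, Relb from 30.7 to 403.7, Nfkbib from 26.8 to 354.3 and Traf3 from 22.1 to 271.2. Junb, an AP-1 subunit gene, went from 27.9 to 538.7. Atg16l2, Trp53 and Spata2, the last encoding a partner of CYLD, had 44.8, 43.7 and 41.1 basal tags and 334.5, 331.0 and 333.8 with IL-1β. All 51 sites were also in the knockout list with IL-1β, where the Nfkbia and Tnfaip3 peaks had 197.4 and 265.0 tags in a window of 231 bp.

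The strongest basal sites were on the low side. Each of the 10 shared peaks with the highest wild-type counts near a gene had fewer tags with IL-1β than without. These peaks were picked by the same basal count that the IL-1β count is set against. Such a choice favours a fall, and its part was not tested. Aatf went from 131.3 to 74.0, Wdtc1 from 84.4 to 59.8, Slc3a1 from 72.9 to 47.1, Scd1 from 72.7 to 42.4 and the stronger Fabp4 peak from 74.0 to 42.6. Otulinl went from 61.2 to 31.6 and Cbfa2t3 from 48.7 to 28.0. Of the 67 shared peaks below their basal count 41 were in the knockout list with IL-1β, and neither shared Fabp4 peak nor the shared Scd1 peak was.

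Several of these low-side sites lay in genes typical of fat and connective tissue. Fabp4, the fatty acid carrier of adipocytes, had 4 wild-type peaks within a gene body of 4275 bp, with 74.0, 68.6, 53.0 and 33.3 tags, and 2 of them were shared, with 33.9 and 34.4 knockout tags. Scd1 had 3 wild-type peaks with 72.7, 33.7 and 24.2 tags, and the first was shared. A list of 25 adipocyte genes and one of 25 extracellular matrix and fibroblast genes, both drawn up after these peaks had been seen, showed how far this went. Of the 50 genes 25 had a wild-type peak and 13 a knockout peak, where 8.92% and 0.658% of all genes did. Among the 13 were Adipoq, Agpat2, Fabp4 and Scd1, and Bgn, Col3a1, Col6a2, Lox, Postn, Sparc, Thbs1 and Vim. Of the 25 adipocyte genes 16 had no basal peak in either genotype, among them Pparg, Plin1 and Lep. Of the 25 matrix and fibroblast genes 9 had none. Because the lists were chosen on these peaks, the counts are no independent evidence.

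The peaks of these genes were spread along gene bodies and mostly lacked PDX1. Of their 82 wild-type peaks 79 were inside a gene body and 2 overlapped a wild-type PDX1 peak, where 55.4% of all wild-type basal peaks did. In the lists with IL-1β, 39 of the 82 overlapped a wild-type peak and 1 a knockout peak, where 50.4% and 35.9% of all wild-type basal peaks did. Col3a1, a fibrillar collagen gene, had 8 wild-type peaks, Sparc and the fibronectin gene Fn1 7 each, and Thbs1 5. Several gene-body peaks without PDX1 were not particular to the 50 genes. Outside them Gsn, encoding the actin-severing protein gelsolin, had 11 wild-type peaks, Ctsd 4, and Bsg, Psap and Npc2 3 each. None of the peaks counted for these genes, inside or outside the 50, overlapped a wild-type PDX1 peak. Sparc had 25.9 wild-type and 22 knockout tags at its strongest peak. By contrast Pde4d, a cyclic AMP phosphodiesterase gene, had 7 wild-type peaks in 1301793 bp, and all overlapped PDX1. Exon positions were not used here, and the source of the tags in these gene bodies was not tested. Without peaks at the 50 genes, 4.52% of wild-type peaks were in the knockout list and 87.4% of knockout peaks in the wild-type list.

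**Figure D4:**
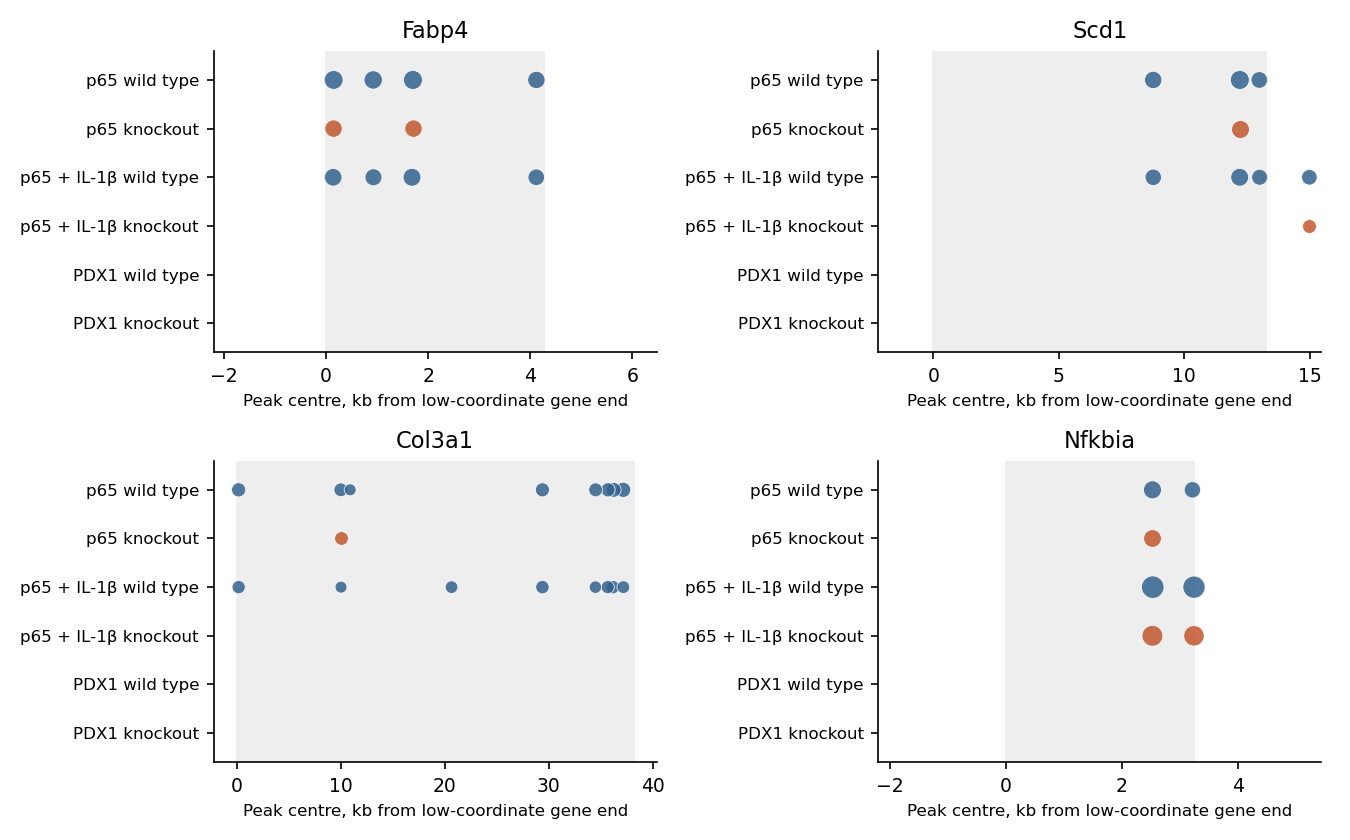
Peak centres in 6 lists along Fabp4, Scd1, Col3a1 and Nfkbia, in kb from the gene's low-coordinate end, with the gene body shaded, wild type in blue, knockout in orange and larger points for more tags on a log scale. Fabp4 has 4 basal wild-type and 2 basal knockout peaks and none in the knockout list with IL-1β, while the Nfkbia site with 45.6 basal tags is in all 4 p65 lists.

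The classes differed in what else was found at the same place. Shared peaks overlapped a wild-type IL-1β p65 peak in 83.1% of cases (76.4 to 88.2%) and wild-type-only peaks in 48.8% (47.0 to 50.5%), where all wild-type peaks stood at 50.4% and all knockout peaks at 82.7%. For the knockout list with IL-1β the shares were 67.5% and 34.3%, and 67.6% for all knockout peaks. For PDX1 the order was the other way. Shared peaks overlapped a wild-type PDX1 peak in 25.3% of cases and wild-type-only peaks in 56.9%, where all wild-type peaks stood at 55.4% and all knockout peaks at 29.5%. For the knockout PDX1 list the shares were 18.8% and 38.5%, where all wild-type peaks stood at 37.5% and all knockout peaks at 20.2%. The PDX1 lists held 40028 wild-type peaks of 207 bp and 8339 knockout peaks of 472 bp. The IL-1β p65 lists held 31389 wild-type peaks of 206 bp and 16162 knockout peaks of 231 bp. Shares are therefore read between classes within 1 list, not between the wild-type and knockout lists. Bins of strength differed. Within the highest wild-type bin the PDX1 shares were 26.6% for shared and 60.1% for wild-type-only peaks, and the wild-type IL-1β shares were 87.9% and 71.3%. In the next bin, with 21 shared peaks, 4 of them (against 66.7% of wild-type-only peaks) overlapped PDX1, and the wild-type IL-1β shares were 66.7% and 61.6%. For the knockout list with IL-1β the shares were 75.8% and 57.2% in the highest bin, and in the next bin the order was the opposite, with 23.8% of shared and 41.0% of wild-type-only peaks. These p65 and PDX1 lists were called against the same input per condition, so their overlaps are not independent of it.

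**Figure D5:**
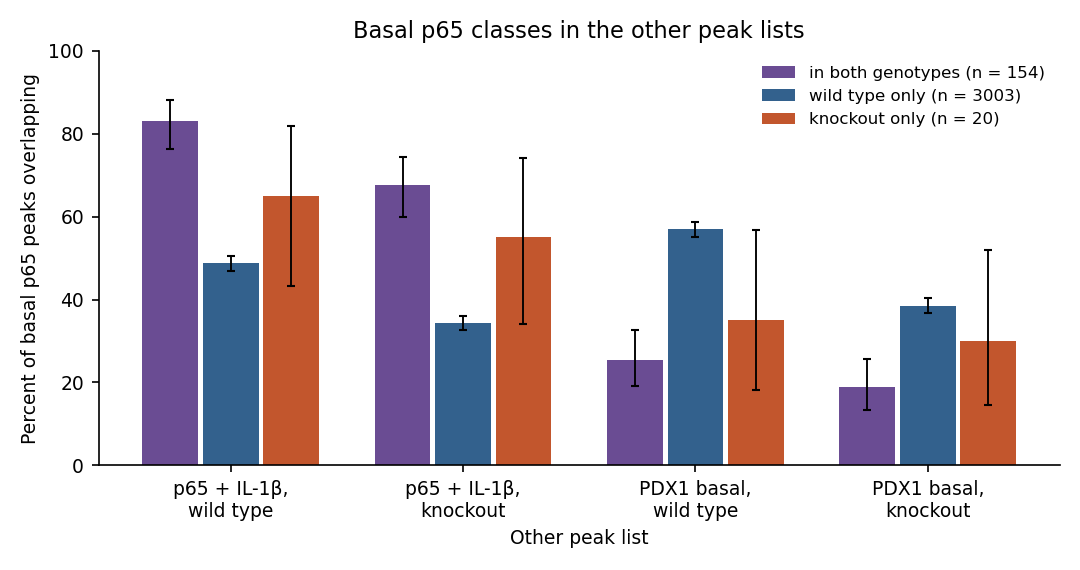
Percent of basal p65 peaks of each class that overlap a peak of 4 other lists, with 95% Wilson intervals. Shared peaks stand at 83.1% for wild-type p65 with IL-1β against 48.8% for wild-type-only peaks, and at 25.3% against 56.9% for wild-type PDX1.

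Position relative to genes also differed between the classes. Within 1 kb of a gene end lay 20.8% of shared (15.1 to 27.9%) and 10.3% of wild-type-only peaks (9.25 to 11.4%). Inside gene bodies lay 64.9% and 51.5%, and farther than 50 kb from any gene 13.6% and 24.1%. Of the wild-type-only peaks with 1 to 4 times their basal tags under IL-1β, 93.3% of those at 2 to 4 times and 90.1% of those at 1 to 2 times overlapped PDX1. Among those at 4 times or more it was 45.7%.

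Some β-cell genes had basal peaks in wild type. Of 30 genes for insulin, secretion and glucose sensing 8 (26.7%) had a wild-type peak, where 8.92% of all genes did, and 22 had none in either genotype. None had a knockout peak, where 0.658% of all genes did, so a list of this size shows nothing particular by having none. Of their 10 wild-type peaks 9 overlapped PDX1, against 55.4% of all wild-type basal peaks. Slc30a8, encoding the zinc transporter of insulin granules, had 19.2 basal p65 tags and 123.3 PDX1 tags in wild type. Abcc8, the sulphonylurea receptor gene, had 18.2 and 83.4, Cpe, encoding the prohormone-trimming carboxypeptidase E, 14.1 and 114.0, and Ins1 10.0 and 49.9 in a peak 11736 bp from the gene. PDX1 peaks were also listed at these 4 places in the knockout, with 127.3, 43.8, 57.7 and 42.4 tags. The PDX1 windows were 207 bp in wild type and 472 bp in the knockout. These tags therefore do not compare PDX1 strength between the genotypes. At these 4 places a PDX1 peak was thus in both genotypes where basal p65 was listed in wild type alone. Over all 3003 wild-type-only peaks, 56.9% overlapped a wild-type and 38.5% a knockout PDX1 peak. Among 23 genes for β-cell transcription factors, 3 carried a wild-type peak (13.0%, beside 8.92% of all genes), including Rfx6 with 13.2 and Mnx1 with 4.65 tags. None had a knockout peak, which again shows nothing particular beside 0.658% of all genes.

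Clock genes had weak peaks in wild type alone. Of 23 genes Rora had 7.07 tags, Per3 4.84 in a peak 18293 bp away, and Arntl, the gene deleted in the knockout, 3.72, which is the list's threshold of 20 tags on this scale. The 13.0% with a wild-type peak compares with 8.92% of all genes. None had a knockout peak, where 0.658% of all genes did, so a list of 23 genes shows nothing particular by having none.

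The strongest wild-type-only sites near a gene included a Fabp4 peak with 53.0 tags, Phc2, a Polycomb gene, with 40.5, and Pde10a with 37.2. Rhbdl2 had 36.1 and the potassium channel gene Kcnn1 35.3. These 2 had 348.2 and 472.6 tags with IL-1β. Kdm2b, a histone demethylase gene, had 34.2, Scd1 33.7, a further Fabp4 peak 33.3, Zfp395 32.2 and Atxn1 31.6. Zfp395 also carried 208.0 wild-type PDX1 tags. Phc2 and Atxn1 had no peak in either list with IL-1β.

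Sites in the knockout only were few and of moderate strength. The 20 peaks had 5.49 to 18.9 tags, and 10 genes (0.0457% of all) had a peak in the knockout alone, against 1818 (8.31%) in wild type alone and 134 (0.612%) in both. The strongest was 36217 bp from Tlx1, with 18.9 tags, and a wild-type peak of 28.8 tags lay 38 bp beside it. Gemin6 had 15.0, Prdm1, encoding the transcriptional repressor BLIMP1, 14.9, Phlda1 14.9, Edaradd 14.7 and Cpm 10.5. Cacna1e, a voltage-gated calcium channel gene, had 9.85, Ptpn3 9.36, Mylk2 9.20 and Rftn1 8.88. Of the 20 peaks 13 overlapped a wild-type peak with IL-1β (65%, 43.3 to 81.9%), among them Gemin6 with 249.9, Phlda1 with 242.5 and Mylk2 with 147.8 tags. These 3 places thus had p65 in wild type once IL-1β was added.

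The remaining lists had 0 to 3 genes with a wild-type peak each. These were 20% of the disallowed and dedifferentiation genes, 6.67% of immediate early genes, 12.5% of stress genes and 10% of lineage markers, beside 8.92% of all genes. In the knockout 1 gene of each of the first 2 lists had a peak (6.67%), beside 0.658%. Of 15 genes that are either kept silent in mature β cells or mark their dedifferentiation, Ldha, the lactate dehydrogenase A gene, had a shared peak with 16.6 and 11.1 tags, Hk1 had 22.7 in wild type only, and Oat 3.72. Junb, with 27.9 and 17.1 tags, was the single immediate early gene of 15. The chaperone genes Hsp90b1 and Hspa5 had 15.2 and 8.74 tags in wild type alone among 16 stress genes. Of 20 markers of other lineages the endothelial gene Pecam1 had 29.6 and the muscle factor gene Myod1 10.0, in wild type alone. No gene of the SIN3 and HDAC list, with 16 genes, or the ribosomal protein list, with 20, had a basal peak. Beside 8.92% of all genes in wild type and 0.658% in the knockout, lists of this size show little by having none.

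Interferon and antigen presentation genes and glycolysis genes, again lists drawn up after the values had been seen, had peaks in both genotypes. Of 22 interferon and antigen genes 8 had a wild-type (36.4%) and 4 a knockout peak (18.2%), where 8.92% and 0.658% of all genes did. Jak1 was given above, Ifngr2, an interferon-γ receptor gene, had 16.7 and 9.69 tags and B2m, the light chain gene of MHC class I, 22.9 and 11.0. H2-D1 and H2-K1, its heavy chain genes, had 15.2 and 12.5 tags in wild type alone. Reads of these near-identical class I genes may be split between copies. Of 18 glycolysis genes 6 (33.3%) and 2 (11.1%) had a peak, the 2 being Ldha and Pkm, and Pkm had 14.7 and 9.53 tags.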

How the data were processed

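ChIP-seq peaks of 6 groups were used as the authors deposited them. HOMER findPeaks made each list in factor style, per the file headers, setting 1 immunoprecipitated tag collection against 1 input. The headers give a false discovery rate threshold of 0.001, a required fold over input of 4 with a Poisson p-value of 0.0001, a local filter over 10000 bp and a fragment length of 100 bp. Bowtie2, HOMER and the build mm10 are named in the submitters' processing notes. Neither labels nor headers state whether the samples of a group were pooled. The peak signal is a tag count, which the authors scaled per 10 M tags according to the file headers. As deposited by the authors, the findPeaks score served only to order peaks with equal tags. The ratio of tags to input tags, a fold computed by the authors, is given for Nfkbia, Tnfaip3 and Nfkbib. Otherwise it served only as a filter in an alternative.

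Peaks were compared with Python 3.11.15, pandas 2.3.3, numpy 2.4.6 and scipy 1.17.1, by an overlap of at least 1 bp, with 95% Wilson intervals. The overlap code was tested on simulated lists. The nearest of 21883 protein-coding gene bodies in the RefSeq table of GRCm38.p6 was taken; its exons were not used. The named genes are, per class, those nearest to the 10 strongest peaks with a gene within 50 kb, every listed gene with a knockout peak, the up to 4 strongest wild-type genes of each list, and NF-κB list genes with no peak. Others (Cbfa2t3, Atg16l2, Trp53, Wrap53, Spata2, Gsn, Ctsd, Bsg, Psap, Npc2, Fn1, Pde4d, Sirt2, Pparg, Plin1, Lep and the Nfkbiz, Cyld, Nfkbid and H2 genes) and the 8 promoters printed were chosen after their values were seen. The 84 NF-κB genes and the other lists, 19 in all, and the members were chosen with earlier results of these data known, and 4 of the lists after seeing the peaks. Alternatives were other overlap rules, a tag floor, a fold of 8 over input, equal list lengths, other gene distances and annotations. Some listed genes are counted but not reported by name here.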

Additional observations from a re-analysis of the deposited data

How the results depend on the processing

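The comparison rests on 1 list per genotype, so no spread between samples was available, and peaks under a list's threshold are not seen. No paired analysis was possible because the lists hold no value per replicate, and leaving out replicates was not run for the same reason. A reciprocal overlap of 50% gave 0 in both directions, since the widths of 206 and 479 bp cannot meet it. Lists of equal length gave 45.7% in both directions. Applying the tag floor of both lists gave 7.21% of wild-type peaks in the knockout.

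With centres within 100 bp, 3.96% of wild-type peaks and 72.3% of knockout peaks were found in the other list. The shares overlapping wild-type and knockout p65 with IL-1β, and wild-type and knockout PDX1, were then 72.1, 58.4, 18.8 and 11.7% for shared peaks and 39.1, 26.8, 45.7 and 29.9% for wild-type-only peaks. For the 20 knockout-only peaks they were 35, 30, 15 and 15%, against 65, 55, 35 and 30% by the 1 bp overlap.

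With both lists cut to at least 8-fold over input, 40 of 1324 wild-type (3.02%) and 40 of 54 knockout peaks (74.1%) were found. Genes with a peak fell to 36 in both genotypes and 840 in wild type only, and NF-κB list genes to 14 in wild type and 3 in the knockout. The class shares at this fold kept the classes of the main comparison, made with the uncut lists. The 1214 wild-type-only peaks that reached it overlapped the 4 lists in 46.8, 28.2, 47.2 and 30.7% of cases. Of the 20 knockout-only peaks 4 reached it, and none (0%) of them overlapped PDX1 in either genotype. With all annotated genes, 16 genes had a peak in the knockout only. The 4 knockout-only peaks with at least 8-fold over input overlapped p65 with IL-1β in 50% of cases in either genotype. Gene distances of 10 and 100 kb and centres within 500 bp moved counts of genes by less than 1.5 times and overlap shares by less than their counting interval. In each alternative with class shares, shared peaks overlapped p65 with IL-1β more often, and PDX1 less often, than wild-type-only peaks.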
